A study of Mus musculus with 5 samples.

Results

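Kinesins are ATP-driven motor proteins that move along microtubules or take them apart. Mitotic kinesins build the spindle, move chromosomes and drive cytokinesis, and their transcripts are known to accumulate in dividing cells. Transport kinesins carry vesicles, mitochondria and ciliary components towards microtubule plus ends and are prominent in neurons, although some are present in nearly every cell. At the embryonic stage studied here the pituitary primordium, Rathke's pouch, holds dividing progenitors next to the neural tissue of the infundibulum.

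The kinesin genes were all genes of the deposited expression table whose symbol is Kif or Kifc followed by a number and, where present, a letter, with the longest listed region kept for each symbol. This gave 40 kinesins of 20097 gene symbols. Of these, 10 were taken as mitotic kinesins (Kif2c, Kif4, Kif11, Kif15, Kif18a, Kif20a, Kif20b, Kif22, Kif23 and Kifc1) and 8 as transport kinesins (Kif1a, Kif1b, Kif3a, Kif3b, Kif3c, Kif5a, Kif5b and Kif5c). The other 22 are described after these classes.

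RNA was sequenced from whole pituitaries of B6;129 mouse embryos at e12.5, the embryonic day given in the labels. The 3 control embryos were Itgb1 f/f, that is, both alleles of the integrin beta-1 gene were floxed. The 2 knockout embryos were littermates that were Itgb1 f/f and also carried Pitx1-cre, in which Pitx1 regulatory sequence drives Cre recombinase in the oral ectoderm and the pituitary that forms from it. Cells outside that lineage keep Itgb1, and all 5 embryos share the floxed alleles. The libraries are called controls 9, 10 and 12 and libraries 13 and 16, after the numbers in their labels, where the latter are labelled KO 13 and KO 16. The labels describe separate biological replicates.

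The deposited level of a gene is its number of tags per 10000000 total tags of the library, counted over a region that spans introns as well as exons. Reads over listed genes numbered between 4480809 (library 16) and 6143263 (control 12). They include the ribosomal precursor Rn45s, so this range does not rank the depth over other genes. Rn45s held 22.2%, 16.8% and 23.5% of total tags in controls 9, 10 and 12, 14.2% in library 13 and 8.9% in library 16. Itgb1 stood at 273, 426 and 431 tags in controls 9, 10 and 12, at 446 in library 13 and at 186 in library 16, so on the deposited scale library 13 went against its label. On the scaled level defined below, Itgb1 was below every control in both, at 340.3 and 106 against 428 to 602, and limma gave a log2 difference of -1.35 (SE 0.49, adjusted p = 0.767). Because the whole region is counted, tags outside the floxed part do not test the deletion. Library 16 stood apart in its background: 406 olfactory and vomeronasal receptor genes, not expected in pituitary, held 1.50 tags per kb there against 0.156 to 0.472 in the other libraries. The labelled cell type is epithelial. Markers of mesenchyme, endothelium, erythroid cells and neurons were all above 0 tags in every library, except that Hbb-bh1 was at 0 in control 10. Background alone can put a gene above 0, so such a count does not show a cell type. On the background-subtracted level defined below, the lowest sums in any library were 524 for mesenchyme, 202 for endothelium, 178 for erythroid and 445 for neuron markers.

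Levels are therefore given on 3 scales. The deposited level was divided by a TMM factor per library, which sets the bulk of genes to a common level, and is then called the scaled level. For the background-subtracted level, the receptor-gene tags per kb of each library times the length of the region were taken off before the scaling. On the deposited scale the median gene was 0.97 higher in the knockout libraries (log2), against 0.04 on the scaled level, so differences of single kinesins are given on the scaled level. In bulk tissue, fewer cells of a type and less RNA per cell cannot be told apart.

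No kinesin passed the test between knockout and control. Of the 39 kinesins with a mean of at least 1 tag, limma called 0 at an adjusted p under 0.05, and over all 19313 genes tested the share called was 0.0%. At an unadjusted p under 0.05 limma gave 0 kinesins, against 2.0% of all genes tested. The quasi-likelihood test of edgeR and DESeq2 on the recovered reads each called 0 kinesins, with 0 at an unadjusted p under 0.05. DESeq2 called 25 of all genes, but it gave no adjusted p for any mitotic kinesin. Among the transport kinesins it gave one for Kif1b only (DESeq2 adjusted p = 0.694). The others could therefore not be called by DESeq2. The 2 knockout libraries lay far apart from each other for many kinesins. With library 16 as the lone knockout against the 3 controls, and assumed to vary as they do, limma called Kif11 and Kif5b lower (2 of 39, where 11.6% of all genes were called lower). On the background-subtracted level the same fit called Kif1b, Kif4, Kif11, Kif20b and Kif5b lower (5 of 39, where 11% of all genes were called lower). With library 13 as the lone knockout it called 0 kinesins on either level, with 3 of all genes (0.0159%) called on the scaled level and 0 on the background-subtracted level.

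Per kb of gene region, the 39 tested kinesins, that is, all but Kif2b, spanned a wide range in 4 libraries and a narrow one in library 16. By the longest region of each gene, Kif5b was the highest in controls 9, 10 and 12 and in library 13. This conventional kinesin heavy chain, which most cells use, stood at 3.27, 6.16, 5.88 and 9.25 deposited tags per kb. Kif12, a kinesin known from kidney, was the lowest of the 39 in these libraries, at 0.160, 0.479, 0.160 and 0.479. The highest was thus 12.8 to 36.8 times the lowest in these 4 libraries. Kif12 was counted there with only 1, 3, 1 and 3 reads, so these ratios are imprecise. The receptor-gene background amounts to 160.8%, 82.4%, 97.6% and 98.5% of its level in these libraries. The shorter region listed for Kif20a, described below, stood higher than Kif5b, at control means of 13.2 and 5.10 deposited tags per kb. Of the same 39, the highest in library 16 was Kif22 at 4.65 tags per kb and the lowest Kif18a at 1.69, a ratio of 2.75. Over the 39 kinesins the SD of log2 tags per kb was 0.33 in library 16 and 0.81 to 1.20 in the other libraries. The transport kinesins Kif1a, Kif3a, Kif3b, Kif3c and Kif5c, chosen here after their values were seen, stood at 2.85, 2.85, 2.85, 2.85 and 2.84 tags per kb in library 16. Their control means ran from 1.25 (Kif5c) to 2.52 (Kif3a). The remaining transport kinesins, Kif1b, Kif5a and Kif5b, stood at 2.58, 3.48 and 3.39 tags per kb in library 16. The receptor-gene background amounted to a median of 50% of the mitotic and 52.6% of the transport kinesins' deposited level in library 16. The matching medians in the controls were 6.4% to 18.2% and 11.3% to 20.1%, and in library 13 they were 11% and 20.5%.

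**Figure D1:**
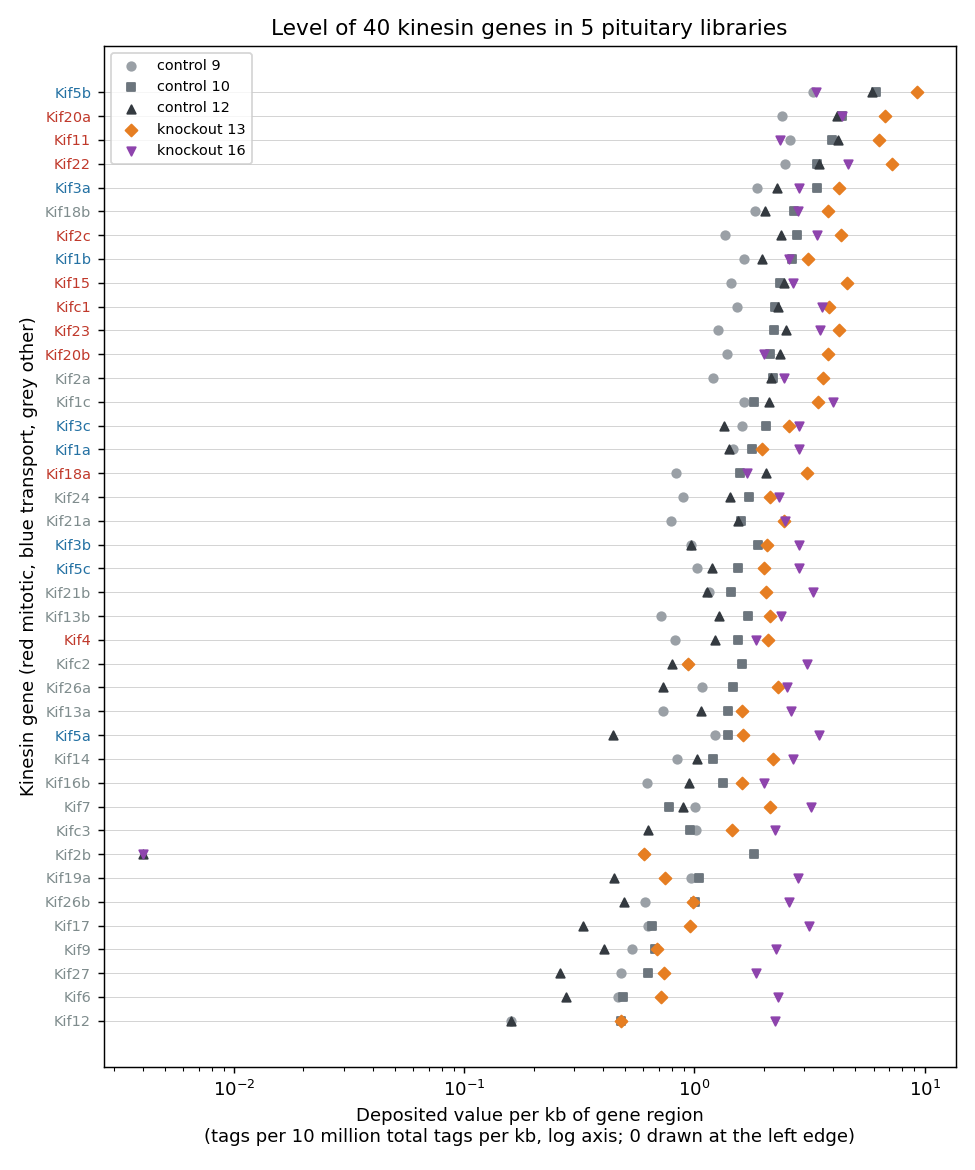
Deposited level per kb of gene region (tags per 10000000 total tags per kb, log axis) of the 40 kinesins, with a point for each of the 5 libraries, values of 0 at the left edge and gene names coloured by class. Points of library 16 lie close together across genes, while Kif5b reaches 9.25 in library 13.

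**Figure D2:**
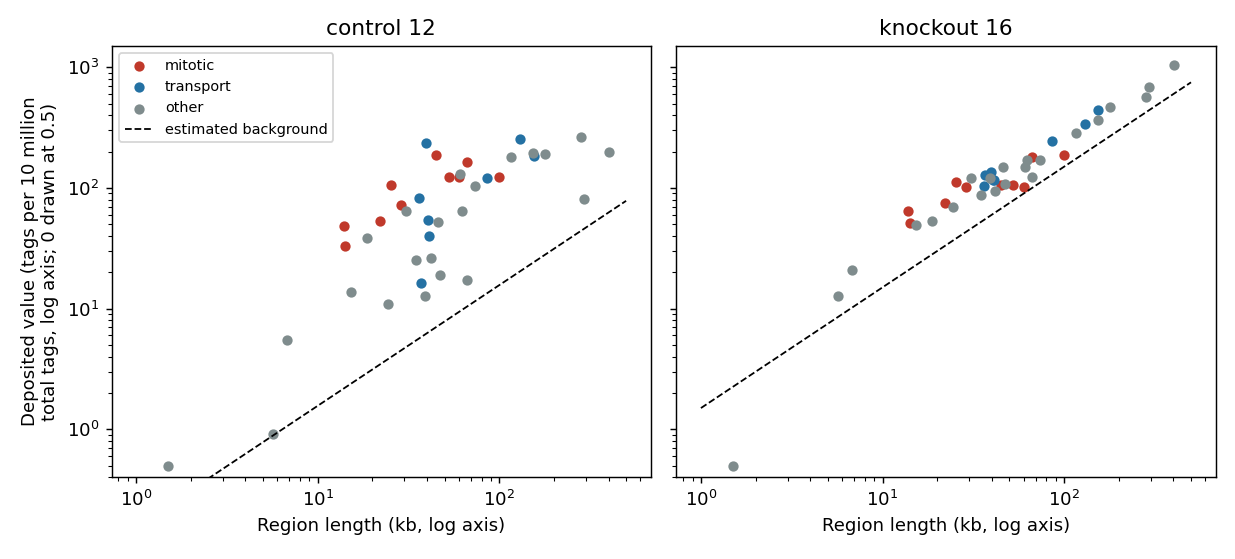
Deposited level of kinesins against the length of their region (log axes) in control 12 and in library 16 (titled knockout 16), coloured by class, with a dashed line at the level that the receptor-gene background of that library would give. In library 16, at 1.50 background tags per kb, the kinesins lie closer to that line than in control 12.

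The mitotic kinesins lay above the control mean in library 13 and were lowest in library 16, on the scaled level. On the scaled level, 10 of 10 lay above the control mean in library 13, with log2 ratios of 0.03 to 0.41, and 8 of these were within the range of the controls. With library 13 as the lone knockout, 10594 of 18830 genes had a log2 difference above 0, with a median of 0.05. In library 16, 10 of 10 lay below every control, with log2 ratios to the control mean of -1.80 to -0.38, as did 39.5% of all genes tested. Control 12 was the highest of the 3 controls for 10 of 10. The direction in library 13 and that in library 16 were therefore opposite for each of the 10 on the scaled level. This is a difference between 2 embryos with the same label, with no replicate on either side. In deposited tags, 10 of 10 lay above every control in library 13, as did 73.3% of all genes.

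The start regions of these genes share a short motif that was not used to choose them. Genes expressed late in the cell cycle often carry the element TTTGAA, known as CHR, which the DREAM and MuvB complexes bind, and upstream of it CCAAT, which NF-Y binds. RefSeq promoter windows of 300 bases (250 before to 50 after the start, build GRCm38.p6) were found for 32 of the 40 kinesins, and both strands were searched for these letters, neither of which contains the other. TTTGAA was present in 8 of 9 windows of mitotic kinesins (88.9%), in 1 of 8 windows of 6 transport kinesins (1 of those of Kif1a), in 4 of 19 windows of other kinesins (21.1%) and in 17.9% of all 32851 windows. Kif1a and Kif1b have 2 windows each, those of Kif1b overlapping, and Kif5a and Kif5b have none. The 4 others were Kif14, Kif18b, Kif26b and Kif27, of which Kif14 and Kif18b are known to act in mitosis. TTTGAA and CCAAT occurred together in 5 of 9 mitotic windows (55.6%), in 0 of 8 transport windows and in 6.95% of all windows. In 7 of the 8 mitotic windows with a match, the one nearest the start lay at window positions 232 to 270, and in that of Kif2c at 148. The E2F motif letters TTCCCGC were in 0 of 9 mitotic windows and in 4.6% of all windows. Other forms of the E2F motif were not searched, so this does not show that these windows lack one. A match describes letters only.

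The 5 mitotic windows with both motifs are shown from 100 bases before to 30 bases after the start, with capitals marking TTTGAA or CCAAT on either strand (TTCAAA or ATTGG on the other), beside Kif18a, the mitotic window without TTTGAA or CCAAT, and Kif5c, a transport kinesin without either. In order, they lie at chr19:37376282-37376411 (plus strand), chr7:127042391-127042520 (minus), chr9:61946770-61946899 (minus), chrX:100625965-100626094 (plus), chr17:33890604-33890733 (minus), chr2:109280638-109280767 (plus) and chr2:49619186-49619315 (plus) of GRCm38.p6, each written 5′ to 3′ along the gene.
Kif11: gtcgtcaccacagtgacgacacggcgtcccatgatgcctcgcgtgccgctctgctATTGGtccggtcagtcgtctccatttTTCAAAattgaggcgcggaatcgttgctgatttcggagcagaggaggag
Kif22: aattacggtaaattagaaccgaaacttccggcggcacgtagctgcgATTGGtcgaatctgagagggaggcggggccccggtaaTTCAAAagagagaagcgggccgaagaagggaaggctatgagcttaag
Kif23: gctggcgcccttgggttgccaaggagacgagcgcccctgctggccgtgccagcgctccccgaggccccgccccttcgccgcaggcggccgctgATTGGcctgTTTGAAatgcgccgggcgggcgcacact
Kif4: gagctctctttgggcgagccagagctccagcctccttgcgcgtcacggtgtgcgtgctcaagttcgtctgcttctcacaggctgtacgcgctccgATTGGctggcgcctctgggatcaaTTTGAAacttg
Kifc1: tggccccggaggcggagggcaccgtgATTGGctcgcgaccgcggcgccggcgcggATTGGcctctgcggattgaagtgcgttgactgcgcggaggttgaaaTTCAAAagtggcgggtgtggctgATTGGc
Kif18a: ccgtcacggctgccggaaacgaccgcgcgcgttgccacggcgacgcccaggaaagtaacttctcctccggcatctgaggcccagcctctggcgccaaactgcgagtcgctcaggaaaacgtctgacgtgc
Kif5c: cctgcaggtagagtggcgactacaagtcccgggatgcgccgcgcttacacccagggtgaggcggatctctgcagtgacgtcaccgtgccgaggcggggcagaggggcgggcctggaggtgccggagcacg

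Spindle assembly depends on Kif11, which slides antiparallel microtubules apart so that the spindle becomes bipolar. Kif11 (mm9 chr19:37451693-37496349) held 116, 176 and 188 deposited tags in controls 9, 10 and 12, 283 in library 13 and 105 in library 16. Library 13 was above every control and library 16 below every control. On the scaled level Kif11 was 192, 177 and 263 in the controls, then 216 in library 13 and 59.9 in library 16, so that library 13 lay inside the controls and library 16 far below. The log2 difference was -0.86 (SE 0.51, limma adjusted p = 0.767). With library 16 as the lone knockout it was -1.77 (SE 0.30, adjusted p = 0.0192), and with library 13 as the lone knockout it was 0.06.

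Kif15, which can stand in for Kif11 in keeping spindle poles apart, held 96.4, 158 and 165 deposited tags in the controls, then 309 in library 13 and 179 in library 16. Its scaled level in library 13 was 236, above the controls at 159, 159 and 229.7, and in library 16 it was 102, below them. Kifc1, a minus-end motor that focuses spindle poles, held 21.8, 31.8 and 32.7 deposited tags in the controls, then 54.6 in library 13 and 50.9 in library 16. Its scaled levels of 35.9, 32.0 and 45.7 in the controls, 41.6 and 28.9 put library 13 inside the controls and library 16 just below them. Kifc1 has a near copy, Kifc5b, named in RefSeq, so its tags are uncertain. The log2 differences of Kif15 and Kifc1 were -0.21 (SE 0.43) and -0.11 (SE 0.43).

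Chromosome movement and attachment are the work of Kif4, Kif22, Kif18a and Kif2c. Kif4, a chromosome-bound motor that also shortens the central spindle's growing ends, held 82.7, 155 and 124 deposited tags in the controls, then 210.0 in library 13 and 186 in library 16. Kif22, a chromosome-bound motor that pushes chromosome arms outwards, held 34.6, 47.3 and 48.2, then 100 and 64.6. Both genes were above every control in both libraries on the deposited scale, as were 50.2% of all genes. On the scaled level Kif22 was 76.2 in library 13, above the controls at 56.9, 47.5 and 67.3, and stood at 36.7 in library 16, below them, while Kif4 was 160.1 and 106 against 136, 155 and 173. Their log2 differences were -0.24 for Kif4 (SE 0.37) and -0.10 for Kif22 (SE 0.44). Kif4 has a pseudogene copy, Kif4-ps, that may share its reads.

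Kif18a, which damps the swings of chromosomes at the spindle equator, held 50, 94.6 and 123 deposited tags in the controls, then 185 in library 13 and 102 in library 16. Its controls were themselves far apart, with scaled levels of 82.4, 94.96 and 171, and library 16 at 57.8 lay below all of them. Of its 102 tags in library 16, the receptor-gene background of that library amounts to 88.6%, the highest share among the mitotic kinesins. Kif2c, which depolymerises microtubules at centromeres, held 30.0, 61.8 and 52.7 tags in the controls, then 96.4 in library 13 and 75.5 in library 16. Scaled, Kif2c was 49.4, 62.1 and 73.6 in the controls, 73.5 in library 13, inside them, and 42.9 in library 16, below them. The log2 differences were -0.28 for Kif18a (SE 0.48) and -0.12 for Kif2c (SE 0.42).

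Cytokinesis is served by Kif23, Kif20a and Kif20b. Kif23, the motor of the centralspindlin complex, held 36.4, 63.6 and 71.8 deposited tags in the controls, then 122 in library 13 and 101 in library 16. Its scaled level was 59.9, 63.9 and 100.3 in the controls, then 92.9 in library 13 and 57.3 in library 16, the smallest distance of library 16 from the control mean among the mitotic kinesins together with Kifc1 (-0.38 each). Kif20b, which acts late in cytokinesis, held 72.7, 112 and 124 tags in the controls, then 200 in library 13 and 105 in library 16, and scaled it was 119.8, 112 and 173, then 152 and 59.9. Library 16 was thus below every control for both genes on the scaled level, and library 13 was within them. The log2 differences were 0.01 for Kif23 (SE 0.42) and -0.46 for Kif20b (SE 0.46).

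Kif20a, which brings the chromosomal passenger complex to the central spindle, is listed with 2 regions on chromosome 18 of mm9. The longest, 34758669 to 34784064 (25396 bp), was taken by the rule. RefSeq gives Kif20a 8654 bp and its neighbour Brd8 26253 bp, and the table has no gene named Brd8. In length the longest region is near Brd8. The shorter one, 34785078 to 34792931, does not overlap it and is near Kif20a. The class counts and means use the longest region, which may thus not count Kif20a. The mitotic mean log2 difference was -0.26 without Kif20a and -0.32 with its shorter region. The longest region held 60.9, 111 and 105 deposited tags in the controls, then 171 in library 13 and 111 in library 16. Its log2 difference was -0.38 on the scaled level (SE 0.42). The shorter region (7854 bp), which overlaps that of Cdc23, held 73.6, 120.0 and 116 in the controls, then 233 in library 13 and 52.7 in library 16. Its values set the libraries further apart: on the scaled level 177 in library 13 was above the controls at 121, 120.5 and 162, and 30.0 in library 16 was far below. Its log2 difference was -0.85 (SE 0.62, limma adjusted p = 0.766). At a control mean of 13.2 deposited tags per kb, that shorter region stood above all longest kinesin regions.

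Adjusted p over the 10 mitotic kinesins ran from 0.767 to 0.995 in limma, with a median log2 difference of -0.23 and 9 of 10 below 0, against 0.04 for all genes tested. On the background-subtracted level, library 16 was below every control for Kif4, Kif11, Kif15, Kif18a, Kif20a and Kif20b, 6 of 10 against 37.0% of all genes. For Kif2c, Kif22, Kif23 and Kifc1 it was within the controls, and Kif23 and Kifc1 lay above the control mean in both knockout libraries. There 6 of 10 log2 differences were below 0, with a median of -0.13. Those of Kif18a, Kif20b and Kif4 moved to -1.06, -0.80 and -0.70, those of Kif20a and Kif23 to -0.11 and 0.26. Kif11 was then 38.6 in library 16 against 162, 146 and 192 in the controls, and Kif18a 11.6 against 53.4, 65.0 and 120.3. In library 13, 10 of 10 again lay above the control mean, and Kif2c, Kif15, Kif22 and Kif23 above every control (4 of 10, against 23.2% of all genes). With library 13 as the lone knockout, 9345 of 17162 genes had a log2 difference above 0 on this level.

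**Figure D3:**
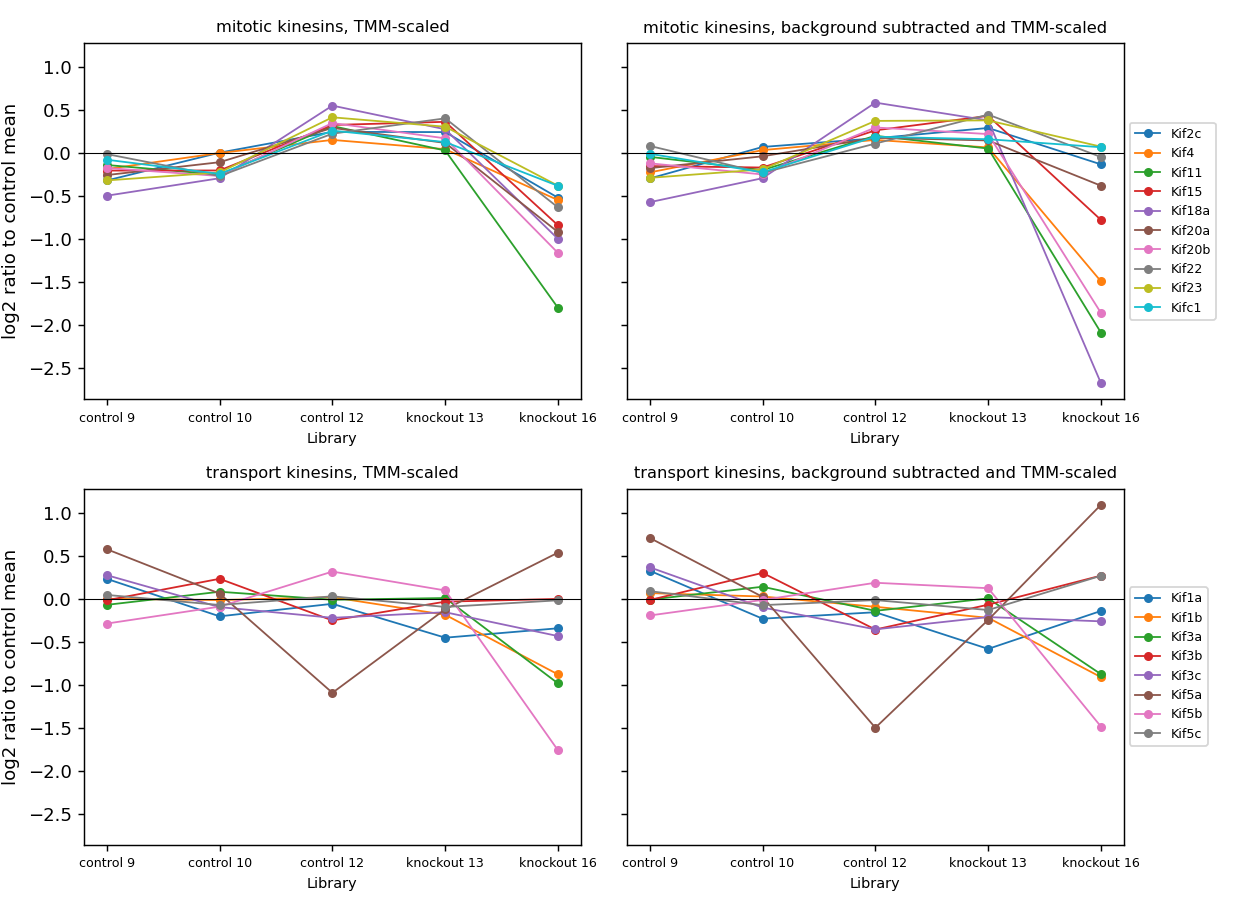
Log2 ratio of each library to the control mean for the mitotic (top) and the transport kinesins (bottom), on the scaled level (left) and the background-subtracted level (right), both after adding 1. Lines join the values of 1 gene and carry no order. On the scaled level, mitotic kinesins run from -1.80 to -0.38 in library 16 and from 0.03 to 0.41 in library 13.

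The transport kinesins lay mostly below the control mean, but by amounts that differed from gene to gene. On the scaled level, library 13 was below every control for 3 of 8 (Kif1a, Kif1b and Kif5c, against 16.3% of all genes) and within the controls for 5. Library 16 was below every control for 5 of 8 (Kif1a, Kif1b, Kif3a, Kif3c and Kif5b, against 39.5% of all genes) and within them for Kif3b, Kif5a and Kif5c. On the background-subtracted level, library 16 was below every control for 3 of 8 (Kif1b, Kif3a and Kif5b, against 37.0% of all genes), within them for 3 and above every control for Kif5a and Kif5c (2 of 8, against 41.5% of all genes). Both knockout libraries were, on the scaled level, below every control for Kif1a and Kif1b, 2 of 8, against 6.8% of all genes.

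Kif5b (mm9 chr18:6201403-6241122) drives much of the cargo traffic of non-neuronal cells. It held 130, 245 and 234 deposited tags in the controls, then 367 in library 13 and 135 in library 16, and scaled it was 214, 246 and 326, then 279.99 and 76.4. Library 13 lay within the controls and library 16 below them, at a log2 ratio of -1.76 to their mean. Its neuronal paralogs differed: Kif5a held 45.5, 51.8 and 16.4 deposited tags in the controls, then 60.0 in library 13 and 128 in library 16. Scaled, Kif5a was 74.9, 52.1 and 22.8 in the controls, which span a wide range, and 45.7 and 72.8 lay inside it. Kif5c, also neuronal, held 158, 239 and 185 tags in the controls, then 310.0 in library 13 and 439 in library 16. Its scaled levels were the closest together of these paralogs, at 261, 240.1 and 258 in the controls, then 236 in library 13 and 249 in library 16. The log2 differences were -0.81 for Kif5b (SE 0.51, limma adjusted p = 0.767), 0.36 for Kif5a (SE 0.53) and -0.06 for Kif5c (SE 0.34), and background subtraction moved that of Kif5a to 0.68. With library 16 as the lone knockout Kif5b was at -1.74 (SE 0.30, adjusted p = 0.0202), and with library 13 alone at 0.12.

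Kif1a and Kif1b carry synaptic vesicle precursors, and Kif1b also mitochondria. Kif1b (mm9 chr4:148550830-148681407) had the tightest controls of the 18 kinesins, with scaled levels of 353, 349.7 and 358 (354 ± 4.09, SD, n = 3). Its deposited tags were 215, 348 and 256 in the controls, then 407 in library 13 and 337 in library 16. Scaled, both knockout libraries lay below the controls, at 310.5 in library 13 and 192 in library 16, and on the background-subtracted level this remained so, at 229 and 142 against 250.6 to 279.9 (7.32% of all genes). Kif1a held 125, 152 and 121 deposited tags in the controls, then 168 in library 13 and 244 in library 16. Scaled, it was 207, 152 and 169, then 128 and 138, both below the controls, but library 16 returned into them after background subtraction. Limma gave log2 differences of -0.53 for Kif1b (SE 0.36, adjusted p = 0.767) and -0.39 for Kif1a (SE 0.35, adjusted p = 0.768).

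Kif3a and Kif3b form the motor that carries components into cilia, and Kif3c is a further partner of Kif3a, mainly in neurons. Kif3a held 67.3, 123 and 82.7 deposited tags in the controls, then 154 in library 13 and 103 in library 16, and scaled it was 111, 123 and 115, then 117 and 58.4. Library 13 lay inside these close controls and library 16 lay below them, at a log2 ratio of -0.99 to their mean. Kif3b, its partner, held 40, 78.2 and 40 tags in the controls, then 85.5 in library 13 and 117 in library 16, and scaled it was 65.9, 78.5 and 55.8, then 65.1 and 66.6, all overlapping. Kif3c held 65.5, 82.7 and 54.6 tags in the controls, then 105 in library 13 and 115 in library 16, and scaled it was 108, 83.1 and 76.2, then 79.7 and 65.6. Their log2 differences were -0.49 for Kif3a (SE 0.40), -0.01 for Kif3b (SE 0.38) and -0.28 for Kif3c (SE 0.38). Over the 8 transport kinesins limma's adjusted p ran from 0.767 to 0.995, the median log2 difference was -0.33 and 7 of 8 were below 0.

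**Figure D4:**
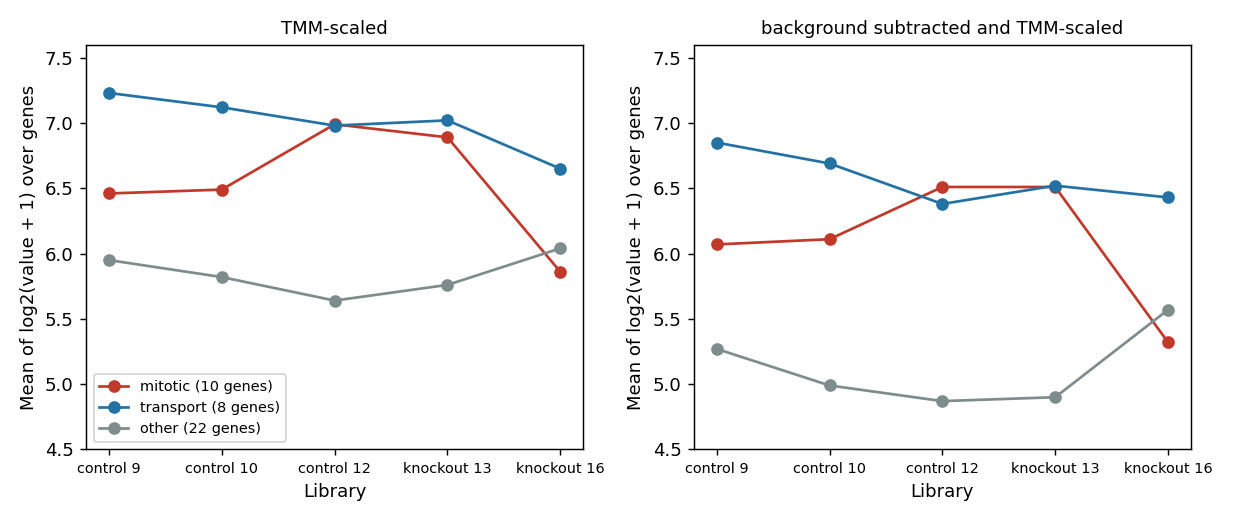
Mean of log2(level + 1) of the mitotic, transport and other kinesins in each library, on the scaled level (left) and the background-subtracted level (right), with lines that join a class and carry no order. The scaled mitotic mean runs from 5.86 in library 16 to 6.99 in control 12, a wider range than the transport mean.

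Averaged over members, the mitotic kinesins varied more among controls than the transport kinesins did on the scaled level, but not on the background-subtracted level, where the control SD was 0.24 for both classes. Their mean scaled level (log2) was 6.46, 6.49 and 6.99 in the controls (SD 0.30), 6.89 in library 13 and 5.86 in library 16. The transport mean was 7.23, 7.12 and 6.98 (SD 0.13), then 7.02 and 6.65. The mean log2 difference between groups was -0.27 for the mitotic and -0.28 for the transport kinesins, with no test because the members were chosen together. Mitotic minus transport was -0.77, -0.63 and 0.02 in the controls, then -0.13 in library 13 and -0.79 in library 16. Library 13 thus lay within the controls and library 16 just below the lowest of them. Its mean was -0.46 in both groups (control SD 0.42). On the background-subtracted level mitotic minus transport was -0.78, -0.59 and 0.12 in the controls, then -0.01 in library 13 and -1.11 in library 16. There library 16 lay further below the controls.

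Of the other 22 kinesins, 21 were tested, with log2 differences from -0.40 to 0.86 (limma adjusted p from 0.767 to 0.999). In scaled terms, library 16 was above every control for 11 of the 21, against 44.0% of all genes, below for 3 and within for 7. Library 13 was above every control for 1, below for 3 and within for 17. The 1 kinesin above every control in both was Kif14, a motor needed for cytokinesis, against 8.5% of all genes. Kif14 held 52.7, 75.5 and 64.6 deposited tags in the controls, then 137 in library 13 and 169 in library 16, and scaled it was 86.9, 75.8 and 90.1, then 105 and 96.1. It lay above every control on the background-subtracted level too, at 71.4 and 75.1 against 46.5 to 58.1 (8.7% of all genes).

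The 4 other kinesins of highest mean level per kb were Kif18b, Kif1c, Kif2a and Kif21b. Kif18b, which trims astral microtubules in mitosis, was below every control in library 16 on the scaled level. It held 34.6, 50.9 and 38.2 deposited tags in the controls, then 71.8 in library 13 and 52.7 in library 16, and scaled it was 56.9, 51.1 and 53.3, then 54.8 and 29.95. Kif2a, a depolymerase of spindle poles and neurons, held 72.7, 134 and 131 tags in the controls, then 220.0 in library 13 and 148 in library 16, and its scaled 84.2 in library 16 was below the controls at 119.8 to 183. Kif1c, which moves vesicles and podosome-regulating cargo, held 50, 55.5 and 64.6 tags in the controls, 105 and 122 in the knockout libraries, and was inside the controls on the scaled level in both. Kif21b, a neuronal kinesin that slows microtubule growth, held 52.7, 66.4 and 51.8 tags, then 93.6 and 150.0, and was inside them as well. The log2 differences were -0.40, 0.00, -0.27 and 0.06 for Kif18b, Kif1c, Kif2a and Kif21b, with SE between 0.37 and 0.42, and background subtraction moved Kif1c to 0.30 and Kif21b to 0.28.

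The kinesins furthest above the control mean in library 16 on the scaled level were Kif12 (1.54, log2), Kif17 (1.28) and Kif6 (1.26), followed by Kif9 (0.84). Kif6, known from ciliated cells, held 136, 144 and 80.9 deposited tags in the controls, then 210.0 in library 13 and 680.0 in library 16, over a region of 293.9 kb. Kif9, a component of the axoneme, held 25.5, 31.8 and 19.1, then 32.7 and 107. Kif17, a kinesin of cilia and dendrites, held 24.6, 25.5 and 12.7, then 37.3 and 122. Each of these was inside or below the controls in library 13 and above them in library 16 on the scaled level. The receptor-gene background amounts to 64.7%, 66.2% and 47.9% of their level in library 16, and to 67.0% of that of Kif12. Kif7, the kinesin at the cilium tip that regulates Hedgehog signalling, held 15.5, 11.8 and 13.6 tags in the controls, then 32.7 in library 13 and 49.1 in library 16. At the low end, Kif12 was counted with 1, 3 and 1 reads in the controls, then 3 in library 13 and 14 in library 16 (12.7 tags, 95% exact Poisson interval 6.96 to 21.4, counting error only). Kif2b, a spindle kinesin of germ cells, had 1, 3 and 0 reads in the controls and 1 and 0 in libraries 13 and 16 and stayed below the filter. A count of 0 allows up to 3 reads (2.73 tags) when only the upper side is bounded.

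**Figure D5:**
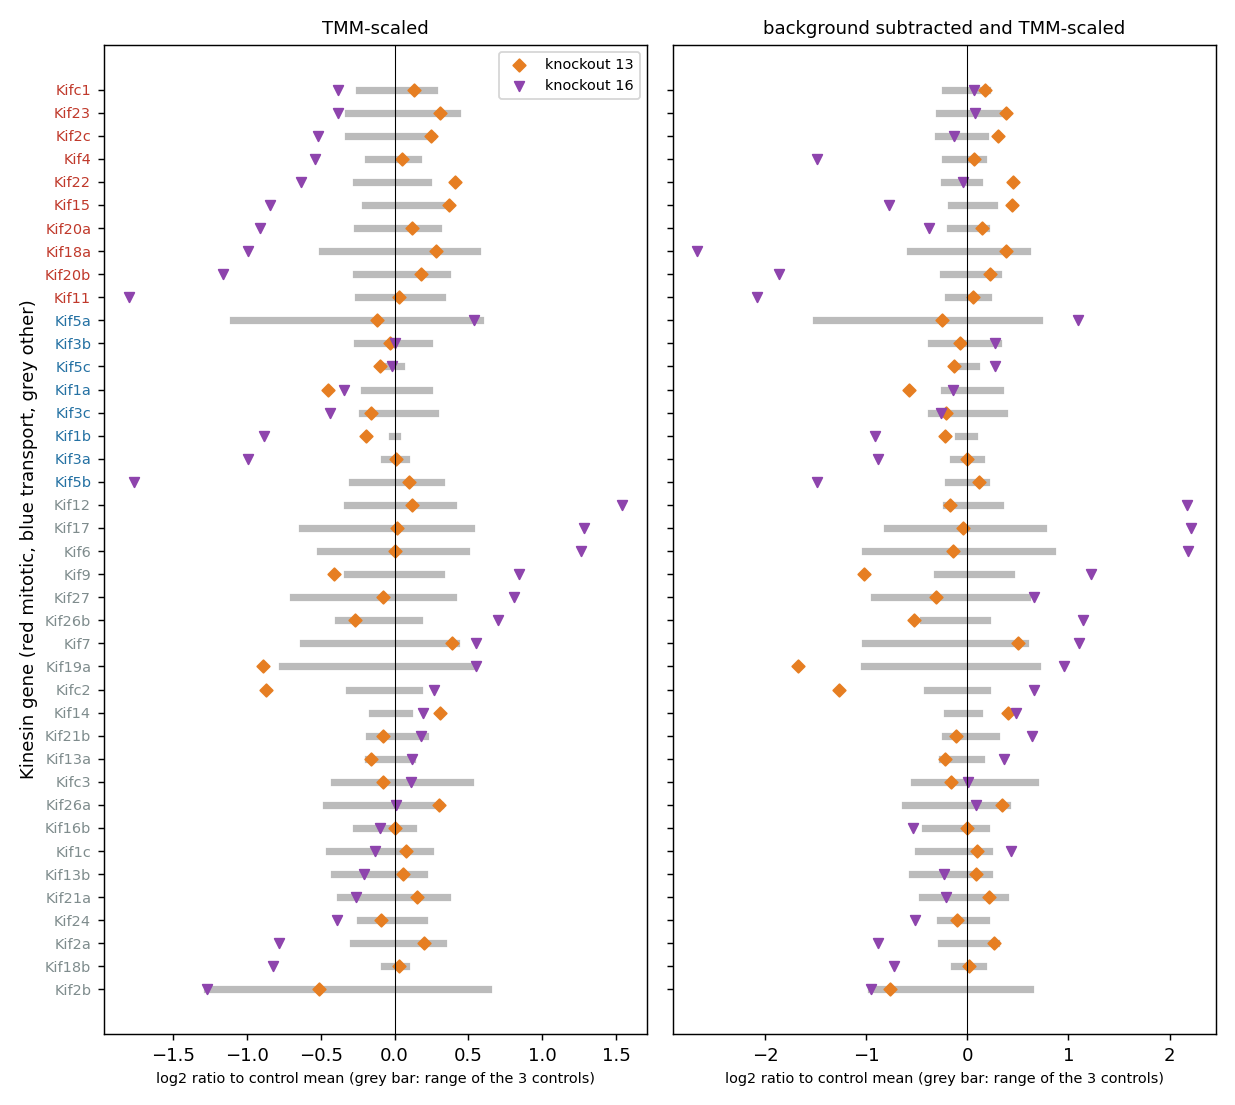
Log2 ratio of library 13 (diamonds) and library 16 (triangles) to the control mean for each kinesin, on the scaled level (left) and the background-subtracted level (right), with a grey bar for the range of the 3 controls. On the left the mitotic kinesins, named in red, lie between 0.03 and 0.41 in library 13 and at or below -0.38 in library 16.

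The authors' deposited table of changed genes lists 3 of the 40 kinesins (7.5%), against 5.1% of all symbols, and none of the mitotic or transport classes. In the authors' deposited table Kif21b has a log2 fold change of 1.62 (p = 0.0002), Kif13b, a motor of membrane traffic, one of 1.58 (p = 0.00169), and Kif24, a centriole depolymerase that restrains cilium formation, one of -0.36 (p = 0.000357). Kif13b held 109, 261 and 196 deposited tags in the controls, then 326 in library 13 and 364 in library 16, and Kif24 held 65.5, 126 and 105, then 156 and 170.0. Both were thus above every control in both knockout libraries on the deposited scale. Scaled, the limma log2 differences were 0.06 for Kif21b, -0.05 for Kif13b and -0.23 for Kif24. The first and the last have the sign given in the authors' deposited table. That table lists control and knockout values without a unit, 12 and 37 for Kif21b, 5 and 15 for Kif13b and 32 and 25 for Kif24. These are not the region tags used here (control mean 57.0 for Kif21b), so the sizes cannot be set side by side.

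Genes that work with the kinesins were read from lists of the pathway. Of 28 spindle and kinetochore genes limma called 0, with a median log2 difference of -0.45 and 25 of 28 below 0, against 0.04 for all genes, of which 9254 of 19313 were below 0. In scaled terms, 28 of 28 were below every control in library 16 (39.5% of all genes) and 15 of 28 above every control in library 13 (20.9% of all genes). On the background-subtracted level these were 25 of 28 (37.0% of all genes) and 17 of 28 (23.2% of all genes). The median log2 difference was then -0.29, with 24 of 28 below 0. Mki67, a marker of dividing cells, held 394, 649 and 704 deposited tags in the controls, then 1151 in library 13 and 279 in library 16, and Top2a, which untangles chromosomes, held 328, 513 and 470.0, then 681 and 158. On the deposited scale, however, 73.3% of all genes lay above every control in library 13. The log2 differences on the scaled level were -1.0 for Mki67 (SE 0.62) and -1.39 for Top2a (SE 0.61). Among 19 cargo adaptors, the proteins that link transport kinesins to their loads, limma called 0 and 9 were above and 10 below 0, with a median of -0.11. Kifap3, the adaptor subunit of the Kif3 motor, was at -0.26 (SE 0.37), and Ppfia2, which links Kif1a to synaptic cargo, at 0.35 (SE 0.40), although Ppfia2 turned to -2.37 after background subtraction. Dynein and dynactin, the motor that runs opposite to most kinesins, had 15 of 15 members below 0 (median -0.68; 13 of 15 after background subtraction) and 0 called, with Dync1h1 at -0.74 and Pafah1b1 at -1.02. The dynein and dynactin median was -1.2 with library 16 as the lone knockout, but -0.02 with library 13. Of 14 ciliary and Hedgehog genes, which include targets of Kif3a and Kif7 dependent signalling, 0 were called and 13 were below 0 (median -0.17; 9 of 14 and -0.11 after background subtraction), with Gli3 at -0.63 and Ptch1 at -1.01. The median of these genes was -0.31 with library 16 as the lone knockout and -0.04 with library 13.

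Markers of some other cell types differed between the libraries as well. The summed scaled level of 11 of 12 neuron markers, the cells in which Kif1a, Kif5a and Kif5c are prominent, was 1297, 1214 and 1126 in the controls, then 1021 in library 13 and 903 in library 16. Without Map2, left out after its values were seen, the sum was 699, 576 and 429, then 505 and 628, inside the controls. Of the 11 markers 5 were above and 6 below 0, with a median log2 difference of -0.02. The summed scaled level of 5 hypothalamus and infundibulum markers was 493, 555 and 659.9 in the controls, then 225 in library 13 and 112 in library 16, and 10 pituitary progenitor markers summed to 954, 909 and 1146, then 1300 and 485. The progenitor sum was thus above every control in library 13 and below every control in library 16. By gene, 6 of the 10 progenitor markers lay above every control in library 13 (20.9% of all genes) and 4 within. Of the mitotic kinesins, 2 lay above and 8 within. In library 16, 8 progenitor markers lay below every control (39.5% of all genes), 1 within and 1 above, while 10 of 10 mitotic kinesins lay below. Summed mesenchyme markers (8) were 1152, 1266 and 1363, then 1024 and 511, while summed endothelium markers (4) were 361, 363 and 366, then 334 and 384. The part of these cell types in the kinesin values was not tested.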

How the data were processed

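Deposited values are a signal made by the authors, per the file headers: tags in each gene region for 10000000 total tags of the library, on build mm9. Ribosomal RNA was removed and libraries were strand-specific, per the labels' protocols. The ribosomal precursor Rn45s still held 8.9% (library 16) to 23.5% (control 12) of total tags. The table puts all regions on 1 strand, which leaves reads of antisense or overlapping genes mixed. Bowtie2, HOMER and edgeR are named in the submitters' processing notes, without roles. For changed genes the authors deposited a log2 fold change, 2 linear fold (ratio) columns, a p-value of unknown adjustment and a score per genotype without a unit.

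All values (100%) were whole multiples of 1 read (0.91 tags) within 0.01 reads, giving 11000000 total tags per library. The limma test (limma 3.58.1 under R 4.3.3, intensity trend) used log2(scaled value + 1), a pseudocount that understates changes of low genes. It ran over 19313 genes with a mean of at least 1 in all 5 libraries, and p was Benjamini-Hochberg adjusted, with a threshold of 0.05. TMM factors ran from 0.607 to 1.76. Alternatives used edgeR 4.0.16, DESeq2 1.42.0 and other factors, filters, pseudocounts, regions and left-out libraries. The members and lists were chosen with earlier results of these data known. Named in full were Itgb1, the 18 mitotic and transport kinesins and the 4 other kinesins highest per kb, and, of each other list, the 2 genes of highest mean where none passed.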

Additional observations from a re-analysis of the deposited data

How the results depend on the processing

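The number of genes called was 0 with limma and with edgeR, 25 with DESeq2, and between 0 and 2425 on leaving out 1 library (2425 without library 13, 3 without library 16). A knockout library left alone is assumed to vary like the controls. The mean log2 difference of the mitotic kinesins (-0.27) was 0.72 on the deposited scale, -0.79 to 0.24 on leaving out a library, and -0.87 without library 13 and 0.28 without library 16 after background subtraction. That of the transport kinesins (-0.28) was 0.72 on the deposited scale and -0.46 to -0.09 on leaving out a library. After background subtraction it was -0.14 with the region of highest mean, -0.06 without control 9, and -0.12 without control 10 or without library 16. Mitotic minus transport (0.00) was -0.33 to 0.33 on leaving out a library (lowest without library 13, highest without library 16), and after background subtraction -0.69 without library 13 and 0.41 without library 16. No paired analysis was possible because the groups share no replicate number. The combinations with background subtraction were chosen after seeing the data. Of 110 single-gene fits without 1 library, 84 kept direction and side of the threshold, 24 turned direction and 2 passed it. The cause was not tested.

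Single kinesins that turned direction, with the reported log2 difference in parentheses, were as follows. Kif2c (-0.12) was at 0.87 with the deposited scale, 0.10 with background subtraction, -0.50 to 0.27 on leaving out a library and 0.31 with background subtraction and no library 16. Kif4 (-0.24) was at 0.76 with the deposited scale, -0.54 to 0.06 on leaving out a library and 0.08 with background subtraction and no library 16. Kif11 (-0.86) was at 0.14 with the deposited scale, -1.77 to 0.06 on leaving out a library and 0.07 with background subtraction and no library 16. Kif15 (-0.21) was at 0.79 with the deposited scale, -0.81 to 0.39 on leaving out a library and 0.45 with background subtraction and no library 16. Kif18a (-0.28) was at 0.71 with the deposited scale, -0.92 to 0.35 on leaving out a library and 0.47 with background subtraction and no library 16. Kif20a (-0.38) was at 0.62 with the deposited scale, -0.89 to 0.14 on leaving out a library and 0.16 with background subtraction and no library 16. Kif20b (-0.46) was at 0.53 with the deposited scale, -1.13 to 0.20 on leaving out a library and 0.24 with background subtraction and no library 16. Kif22 (-0.10) was at 0.89 with the deposited scale, 0.21 with background subtraction, -0.61 to 0.42 on leaving out a library and 0.46 with background subtraction and no library 16. Kif23 (0.01) was at -0.34 to 0.35 on leaving out a library. Kifc1 (-0.11) was at 0.87 with the deposited scale, 0.13 with background subtraction, -0.36 to 0.15 on leaving out a library, 0.12 with background subtraction and no library 13 and 0.17 with background subtraction and no library 16. Kif1a (-0.39) was at 0.61 with the deposited scale. Kif1b (-0.53) was at 0.47 with the deposited scale. Kif3a (-0.49) was at 0.51 with the deposited scale, -0.98 to 0.01 on leaving out a library and 0.01 with background subtraction and no library 16. Kif3b (-0.01) was at 0.99 with the deposited scale, 0.01 with median-ratio factors, 0.12 with background subtraction, -0.13 to 0.14 on leaving out a library and 0.33 with background subtraction and no library 13. Kif3c (-0.28) was at 0.71 with the deposited scale. Kif5a (0.36) was at -0.11 to 0.73 on leaving out a library. Kif5b (-0.81) was at 0.19 with the deposited scale, -1.74 to 0.12 on leaving out a library and 0.13 with background subtraction and no library 16. Kif5c (-0.06) was at 0.95 with the deposited scale, 0.07 with background subtraction and 0.30 with background subtraction and no library 13. Kif18b (-0.40) was at 0.59 with the deposited scale, -0.82 to 0.03 on leaving out a library and 0.03 with background subtraction and no library 16. Kif2a (-0.27) was at 0.73 with the deposited scale, -0.76 to 0.23 on leaving out a library and 0.28 with background subtraction and no library 16. Kif21b (0.06) was at -0.07 to 0.18 on leaving out a library and -0.10 with background subtraction and no library 16.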
